A study of Mus musculus with 139 samples.

Results

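The imprinted Dlk1-Dio3 region of mouse chromosome 12 carries a large cluster of microRNA (miRNA) genes, and 43 of its miRNA rows were followed here across 11 tissues. The rows were taken by name from a count table of 6114 small non-coding RNA genes, and all 43 were present and passed the filter on low counts. They fell into 13 rows of the proximal segment, toward Meg3 (Mir770, Mir673, Mir493, Mir337, Mir540, Mir665, Mir431, Mir433, Mir127, Mir434, Mir136, Mir341 and Mir370), and 30 rows of the distal segment, from Mir379 to Mir410 (Mir379, Mir411, Mir380, Mir323, Mir758, Mir329, Mir494, Mir679, Mir666, Mir543, Mir495, Mir667, Mir376c, Mir376b, Mir376a, Mir300, Mir381, Mir487b, Mir539, Mir382, Mir134, Mir668, Mir485, Mir154, Mir377, Mir541, Mir409, Mir412, Mir369 and Mir410).

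The series is an atlas of small non-coding RNA in wild-type mice of the inbred strain C57BL/6J, adults of 3 months, with no treatment in the labels. Tissues were stored in RNAlater and sequenced as TruSeq small RNA libraries, and the table held 134 of them from 14 animals: 14 each of brain, muscle, spleen and kidney, 13 each of heart, lung and liver, 12 each of intestine, pancreas and bone marrow, and 3 labelled testis. Animals 1 to 10 were female and 11 to 14 male. Libraries of the first 10 animals stood in pools N467 (liver, spleen, kidney, pancreas and lung) and N469 (brain, muscle, intestine, heart and bone marrow), and those of animals 11 to 14 in pool N541, so that within any tissue the effects of sex, animals and pool cannot be told apart. In animals 1 to 10 the tissues of N467 shared no pool with those of N469. Between such tissues, effects of tissue and pool were separated only through the N541 libraries. The libraries labelled testis were placed in N541 by assumption. Each of their titles is borne by more than 1 listed sample, and the labels give a pool and an age for only 1 of them. Each group is bulk tissue, in which fewer cells of a type and less RNA per cell cannot be told apart.

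In this region the genes on the maternally inherited chromosome make non-coding RNAs, and those on the paternal one make the protein-coding Dlk1, Rtl1 and Dio3. The miRNAs are maternal: long transcripts that run through Meg3, the strand opposite Rtl1, Rian and Mirg are cut into hairpins, each of which gives mature miRNAs from its 5p and 3p arm. A mature miRNA guides Argonaute to messenger RNAs, mostly through the seed, bases 2 to 8. The cluster is best known from brain, placenta and embryonic muscle. Mir134 limits dendritic spine size in neurons, the distal cluster takes part in activity-dependent dendrite growth, and Mir127, Mir136, Mir431, Mir433 and Mir434 lie opposite the Rtl1 coding sequence, whose messenger RNA they match perfectly.

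All 43 hairpins lie on the plus strand of chromosome 12 (GENCODE M21, GRCm38), the proximal segment at chr12:109563692-109618336 and the distal segment at chr12:109709060-109743795, with 90.7 kb between them. By annotation, Mir770 (chr12:109563692-109563785) overlaps an exon of Meg3, 5 members lie between Meg3 and Rtl1 (Mir673, Mir493, Mir337, Mir540 and Mir665), 5 lie opposite an Rtl1 exon (Mir431, Mir433, Mir127, Mir434 and Mir136) and 2 in Rian introns (Mir341 and Mir370). The distal segment has 19 members upstream of the annotated Mirg, from Mir379 (chr12:109709060-109709125) to Mir539, and 11 within it, 8 of them overlapping exons and 3 in introns (Mir154, Mir541 and Mir409). Mir127, the most abundant member, is at chr12:109592846-109592915 and Mir541, the next, at chr12:109742409-109742498.

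Mature sequences came from RefSeq (GRCm38.p6), which held 82 for the 43 members, and the seed is in capitals. The counts are per hairpin, so they do not tell which arm was read. The first set holds the 8 members with the highest levels in brain, which carried most of the signal in every tissue.
mmu-miR-127-5p: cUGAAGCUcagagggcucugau
mmu-miR-127-3p: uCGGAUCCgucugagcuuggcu
mmu-miR-541-5p: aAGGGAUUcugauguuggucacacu
mmu-miR-541-3p: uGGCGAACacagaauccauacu
mmu-miR-136-5p: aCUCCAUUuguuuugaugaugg
mmu-miR-136-3p: aUCAUCGUcucaaaugagucuu
mmu-miR-434-5p: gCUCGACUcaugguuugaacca
mmu-miR-434-3p: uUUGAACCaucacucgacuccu
mmu-miR-410-5p: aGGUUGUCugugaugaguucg
mmu-miR-410-3p: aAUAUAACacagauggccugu
mmu-miR-381-5p: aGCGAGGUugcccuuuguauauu
mmu-miR-381-3p: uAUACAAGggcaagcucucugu
mmu-miR-300-5p: uUGAAGAGagguuauccuuugu
mmu-miR-300-3p: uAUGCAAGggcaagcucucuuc
mmu-miR-411-5p: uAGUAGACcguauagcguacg
mmu-miR-411-3p: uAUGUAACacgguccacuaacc

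The second set holds members whose balance between brain, muscle and heart departed most from that of the others, described further on.
mmu-miR-770-5p: aGCACCACgugucugggccacg
mmu-miR-770-3p: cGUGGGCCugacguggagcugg
mmu-miR-758-5p: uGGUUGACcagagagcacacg
mmu-miR-758-3p: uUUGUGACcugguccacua
mmu-miR-323-5p: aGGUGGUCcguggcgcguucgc
mmu-miR-323-3p: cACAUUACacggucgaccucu
mmu-miR-493-5p: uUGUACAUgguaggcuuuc
mmu-miR-493-3p: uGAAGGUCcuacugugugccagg
mmu-miR-539-5p: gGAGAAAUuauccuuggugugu
mmu-miR-494-5p: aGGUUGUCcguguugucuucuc
mmu-miR-494-3p: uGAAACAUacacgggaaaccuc
mmu-miR-412-5p: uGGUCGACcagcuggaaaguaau
mmu-miR-412-3p: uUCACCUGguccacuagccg

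The third set adds relatives of these and of each other, since reads of near-identical members can be divided between rows.
mmu-miR-379-5p: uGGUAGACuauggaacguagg
mmu-miR-379-3p: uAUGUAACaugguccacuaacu
mmu-miR-376a-3p: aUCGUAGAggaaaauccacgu
mmu-miR-376b-3p: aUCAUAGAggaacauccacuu
mmu-miR-376b-5p: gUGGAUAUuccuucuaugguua
mmu-miR-376c-5p: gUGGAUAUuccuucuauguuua

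Of 79 different seeds, 3 were shared by 2 members each: miR-379-3p with miR-411-3p, miR-494-5p with miR-410-5p, and miR-376b-5p with miR-376c-5p. The mature miR-376b-5p and miR-376c-5p differed at 1 of 22 bases, miR-379-3p and miR-411-3p at 2 of 22, miR-381-3p and miR-300-3p at 3 of 22, and miR-376a-3p and miR-376b-3p at 3 of 21. The seeds of the last 2 pairs differed at 1 base each. Levels of Mir376a, Mir376b, Mir376c, Mir300 and Mir381 are therefore uncertain in how reads were split between them. The same holds for Mir379 and Mir411 as far as the 3p arm was read. Another 6 rows lie on the opposite strand of a member and held almost nothing: Mir3071 had 1 count against 230316 for Mir136, Mir3544 had 8 against 10071 for Mir337, and the partners of Mir380, Mir376a, Mir539 and Mir409 had 0.

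Library totals ran from 10255 to 34095704 counts, with 8 libraries under 100000: 6 of pancreas, 1 of liver and 1 of brain. The 10 neuronal marker miRNAs, Mir124a and Mir9 among them, summed to 8439 to 80322 CPM in brain, and the 9 striated muscle markers to 130524 to 622225 CPM in muscle. The libraries labelled testis went against their label: 11 male germ cell miRNAs summed to 0 to 0.229 CPM there, with 1 of the 11 above a median of 0, while 5 epithelial miRNAs summed to 11067 to 14583 CPM. They are called "labelled testis" throughout. The library labelled Pancreas 11 had 10255 counts and 81716 unscaled CPM of Mir215, an intestinal miRNA, and only 10 counts on the cluster.

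Brain held by far the most of the cluster, muscle the next most, and kidney and bone marrow the least. Levels are CPM, counts scaled to the library total, with edgeR's TMM correction for library composition. The summed level of the 43 members was 37916 ± 11053 CPM (SD, n = 14) in brain and 5303 ± 1982 CPM (n = 14) in muscle. The mean in brain was 7.15 times that in muscle, and the lowest brain library (13280.3 CPM) stood above the highest muscle library (7767 CPM). Brain exceeded muscle in 14 of 14 animals. Without any scaling, the cluster took 6.45 ± 2.03% of all counts in brain and 0.367 ± 0.223% in muscle. Brain libraries supplied 84.8% of all 3986816 counts on the cluster and muscle libraries 9.76%.

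Muscle in turn was separate from every tissue below it in TMM-scaled CPM. With unscaled totals the lowest muscle library (882 CPM) stood below the highest library of heart (1381 CPM) and of pancreas (1522 CPM). The values that follow are TMM-scaled. Heart, the other striated muscle, had 646 ± 275 CPM (n = 13), and the lowest muscle library (2159 CPM) exceeded the highest heart library (1112 CPM). The mean in muscle was 8.21 times that in heart, and muscle was higher in 13 of 13 animals with both. Neuronal markers in muscle summed to 92.6 to 434 CPM, and Mir124a alone to 0 to 5.64 CPM, while in brain Mir124a summed to 1606 to 22799 CPM.

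**Figure D1:**
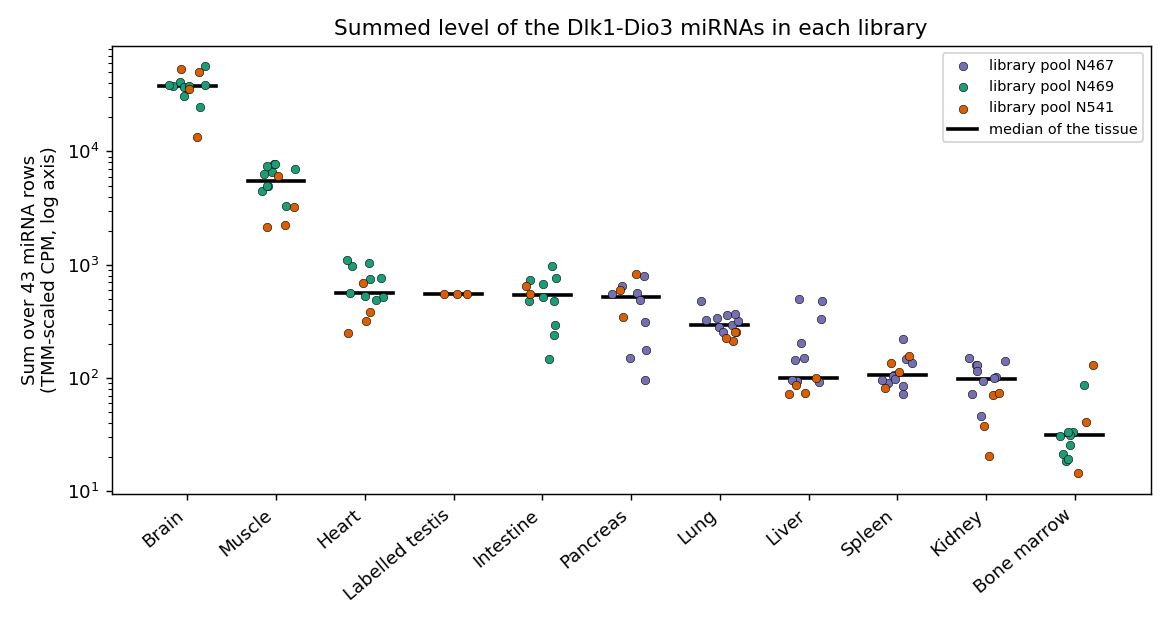
Summed level of the 43 miRNA rows in each of the 134 libraries (TMM-scaled CPM, log axis), by tissue, with points coloured by library pool and a bar at the median of each tissue. Brain (13280.3 to 56409 CPM) and muscle (2159 to 7767 CPM) do not overlap each other or any other tissue, while the 9 tissues to their right overlap their neighbours.

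Below muscle the order of the means was heart, labelled testis, intestine, pancreas, lung, liver, spleen, kidney and bone marrow, and the ranges of every pair of neighbours in that order overlapped. The order changed with the scaling: with unscaled totals, pancreas (727 CPM) stood above heart (653), intestine (420.4) above labelled testis (339.6), spleen (180.4) above liver (145) and bone marrow (63.3) above kidney (46.0), and the same 4 pairs changed places with totals over miRNA rows. The 3 libraries labelled testis had 550.4, 556 and 558 CPM. Intestine had 542 ± 235 CPM (n = 12), pancreas 463 ± 246 (n = 12), lung 306 ± 73.3 (n = 13) and liver 187 ± 152 (n = 13). Spleen had 117 ± 39.0 CPM (n = 14), kidney 92.2 ± 40.2 (n = 14) and bone marrow 40.5 ± 33.8 (n = 12). Pancreas, with a median of only 48.5 counts on the cluster per library, and liver, with 253, are the least precise of these. In kidney the sums were 46.6 to 151 CPM in pool N467, and 20.4 to 73.5 CPM in pool N541.

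The same few members led in every tissue. Mir127 made up 50.3% of the mean summed level in brain, 46.5% in muscle, 47.6% in heart and between 37.6% (labelled testis) and 54.4% (liver) elsewhere. The liver value rests on a few libraries with high Mir127: taken per library, Mir127 held a median of 29.2% of the cluster there (22.7 to 85.3%), the lowest median of the 11 tissues, against 51.3% in brain. Mir541 was second in all 11 tissues, with 13.7% in brain and up to 29.1% in lung. In brain Mir381 (6.17%) and Mir136 (5.21%) followed. All 43 members had a mean of at least 1 CPM in brain and 40 had in muscle, 27 in heart and 8 in bone marrow. At least 100 CPM was reached by 22 members in brain, 8 in muscle, 2 in heart and 0 in spleen, kidney and bone marrow. The order of the members was alike between tissues as a description: over the 43 means Spearman's rho with brain was 0.752 for muscle and 0.828 for heart, and rho between muscle and heart was 0.910. Mature miRNAs are of similar length (19 to 26 bases), so CPM was used to order members. Per base of hairpin Mir127 and Mir541 were still first and second in brain, and Mir381 and Mir136 changed places.

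**Figure D2:**
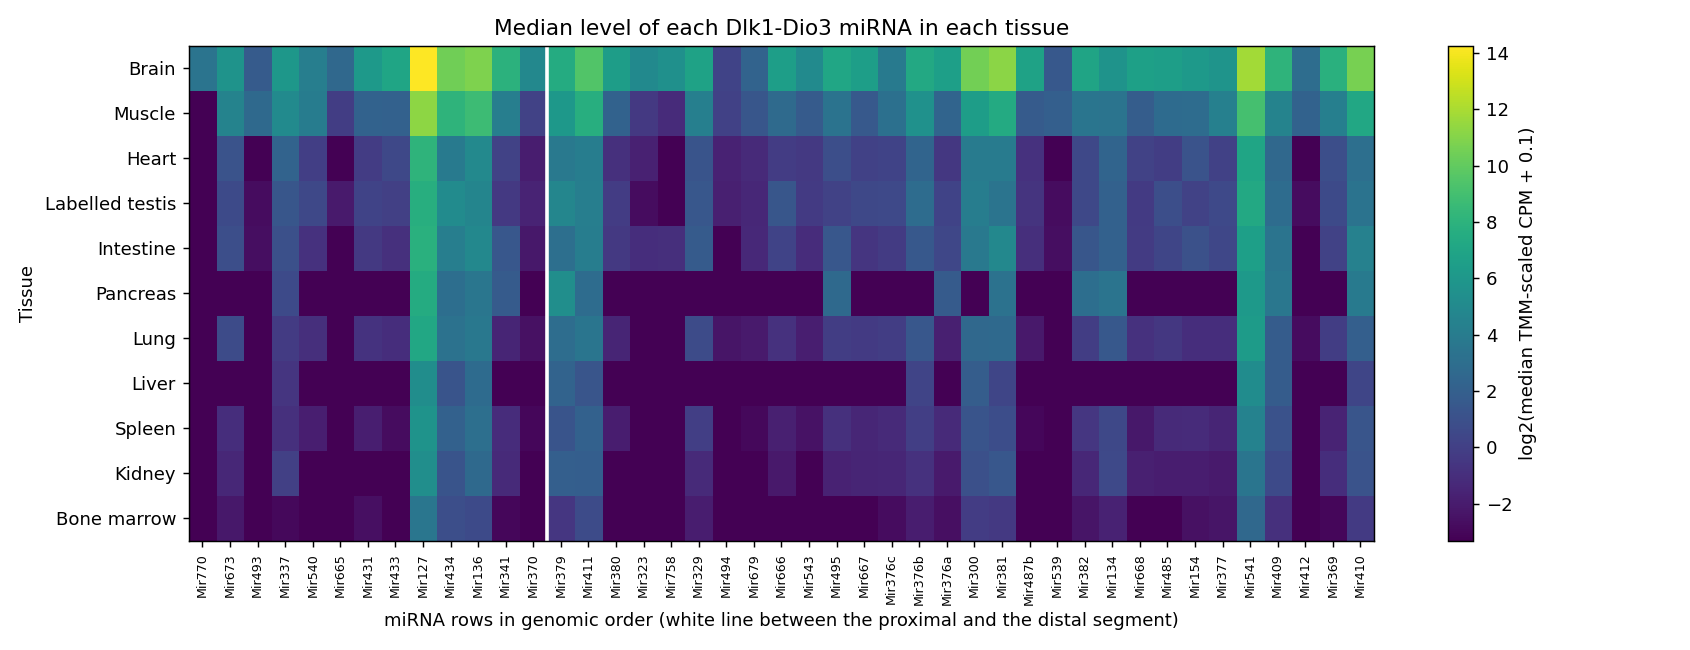
Median level of each of the 43 miRNA rows (columns, in genomic order, with a white line between the segments) in each tissue (rows), as log2(median TMM-scaled CPM + 0.1). The columns of Mir127 and Mir541 are bright in all tissues, and the brain row is the brightest except at Mir493 and Mir539, where muscle is higher (medians 3.16 and 6.23 CPM for Mir493).

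Mir127, which lies opposite Rtl1, had a lowest, median and highest level of 4575, 19466 and 28930.3 CPM in brain and 815, 2471 and 4462 in muscle. Its medians elsewhere were 274 in heart, 233 in intestine, 204 in the libraries labelled testis, 179 in pancreas, 145 in lung, 52.0 in spleen, 41.5 in kidney, 39.8 in liver and 12.1 in bone marrow. The shallow library Brain 11 gave the brain minimum and still lay above every muscle library. Mir136, from the same stretch, had 553, 1872 and 3839 CPM in brain and 204, 428 and 741 in muscle, and its ranges overlapped. Elsewhere its medians were 30.9 in heart, 29.3 in intestine, 24.9 in the libraries labelled testis, 12.8 in lung, 11.8 in pancreas, 8.54 in spleen, 7.01 in liver, 6.35 in kidney and 1.43 in bone marrow.

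Mir434, the third abundant member opposite Rtl1, ran at 128, 1388 and 2645 CPM in brain and 118, 279 and 703 in muscle. Its other medians were 34.7 in the libraries labelled testis, 18.2 in intestine, 15.2 in heart, 9.87 in lung, 8.23 in pancreas, 4.19 in spleen, 2.30 in liver, 2.21 in kidney and 1.73 in bone marrow. Mir433, also opposite Rtl1, was at 40.7, 126 and 775 CPM in brain against 0.858, 4.30 and 47.7 in muscle, with wide spread in both. Its medians were 1.31 in heart, 0.917 in the libraries labelled testis, 0.429 in intestine, 0.387 in lung and 0.0481 in spleen and 0 in pancreas, liver, kidney and bone marrow. Both were thus mainly brain miRNAs here, but only Mir434 stayed above 1 CPM in every other tissue.

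Mir341, in an intron of Rian, was at 96.4, 248 and 835 CPM in brain and 3.08, 18.02 and 33.8 in muscle, without overlap. Other medians were 3.23 in pancreas, 2.61 in intestine, 0.983 in heart, 0.639 in the libraries labelled testis, 0.370 in spleen, 0.337 in kidney, 0.259 in lung and 0.0264 in bone marrow and 0 in liver. Mir337, between Meg3 and Rtl1, showed a different picture, with 23.7, 61.9 and 241 CPM in brain and 15.4, 33.4 and 80.9 in muscle, so that the ranges overlapped widely. Medians for Mir337 elsewhere were 4.65 in heart, 2.46 in the libraries labelled testis, 1.85 in intestine, 1.41 in pancreas, 0.892 in kidney, 0.722 in lung, 0.540 in liver, 0.442 in spleen and 0.0313 in bone marrow.

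In the distal segment Mir541, from an intron of Mirg, was at 644, 3603 and 13726 CPM in brain and 227, 543 and 1765 in muscle, with a wide spread in brain and overlapping ranges. It was the member with the second highest median in each further tissue: 153 in the libraries labelled testis, 129 in heart, 94.6 in intestine, 79.1 in lung, 69.9 in pancreas, 37.5 in liver, 21.99 in spleen, 11.4 in kidney and 5.93 in bone marrow. Mir410, the last hairpin of the cluster, had 672, 1595 and 3623 CPM in brain and 51.2, 146 and 255 in muscle, with no overlap. Its medians were 21.1 in intestine, 14.6 in pancreas, 10.1 in the libraries labelled testis, 8.43 in heart, 3.97 in lung, 2.43 in spleen, 2.15 in kidney, 1.15 in liver and 0.681 in bone marrow.

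Mir381 and Mir300 are neighbours and sequence relatives. Mir381 was at 336, 2384 and 4901 CPM in brain and 35.6, 168 and 421 in muscle, and Mir300 at 445, 1472 and 2072 and 45.7, 86.2 and 132. For Mir300 the groups did not overlap. Elsewhere the medians of Mir381 were 29.7 in intestine, 16.1 in heart, 10.6 in the libraries labelled testis, 9.67 in pancreas, 6.21 in lung, 2.58 in kidney, 1.70 in spleen, 1.17 in liver and 0.657 in bone marrow. Those of Mir300 were 17.2 in the libraries labelled testis, 15.8 in heart, 13.9 in intestine, 6.00 in lung, 3.50 in liver, 2.28 in spleen, 1.87 in kidney and 0.791 in bone marrow and 0 in pancreas. Which of the pair was higher differed between tissues, with Mir381 above Mir300 by median in brain and intestine and below it in the libraries labelled testis and liver, under the uncertainty of reads shared between them.

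Mir379 and Mir411 open the distal segment and share their 3p seed, so reads of that arm may be divided between them. Mir411 was the more abundant in brain (278, 725 and 3866 CPM) and muscle (61.5, 204 and 1308 CPM), and its medians elsewhere were 18.5 in the libraries labelled testis, 17.4 in intestine, 16.9 in heart, 11.1 in lung, 7.15 in pancreas, 4.20 in spleen, 3.74 in kidney, 2.35 in liver and 1.51 in bone marrow. Mir379 had 49.0, 183 and 1423 CPM in brain and 21.9, 66.3 and 437 in muscle, with overlap. In pancreas, liver, kidney and the libraries labelled testis Mir379 exceeded Mir411 by median: its medians were 41.2 in pancreas, 27.2 in the libraries labelled testis, 13.9 in heart, 8.43 in intestine, 7.58 in lung, 4.69 in liver, 3.86 in kidney, 2.29 in spleen and 0.571 in bone marrow.

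Mir409, Mir369, Mir376b and Mir487b complete the 10 most abundant distal members. Mir409 had 69.0, 279 and 649 CPM in brain and 12.3, 22.7 and 40.6 in muscle, with medians of 12.5 in pancreas, 11.0 in intestine, 7.33 in the libraries labelled testis, 6.04 in heart, 3.34 in liver, 3.29 in lung, 2.001 in spleen, 1.42 in kidney and 0.443 in bone marrow. Mir369 had 29.6, 229 and 417 and 8.47, 18.9 and 27.4 CPM, and elsewhere 1.75 in heart, 1.46 in the libraries labelled testis, 1.02 in intestine, 0.822 in lung, 0.392 in kidney, 0.237 in spleen and 0.0263 in bone marrow and 0 in pancreas and liver. In both the brain libraries all lay above the muscle libraries.

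Mir376b had 69.2, 155 and 548 CPM in brain and 17.6, 46.9 and 80.1 in muscle, with medians of 7.33 in the libraries labelled testis, 5.02 in heart, 2.82 in intestine, 2.58 in lung, 1.11 in liver, 0.859 in spleen, 0.474 in kidney and 0.166 in bone marrow and 0 in pancreas. The Mir376 family is known for adenosine-to-inosine editing in brain, which a count per hairpin does not show. Mir487b had 39.5, 112 and 449 and 0.858, 3.13 and 5.63 CPM in brain and muscle, with no overlap. Its medians were 0.535 in the libraries labelled testis, 0.471 in heart, 0.425 in intestine, 0.128 in lung and 0.0215 in spleen and 0 in pancreas, liver, kidney and bone marrow.

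The other 17 members, outside these and the exceptions described below, were lower. The 4 proximal ones had brain medians from 6.12 (Mir665) to 73.8 (Mir431) CPM and muscle medians from 0.813 (Mir665) to 23.1 (Mir673) CPM. The 13 distal ones had brain medians from 34.4 (Mir543) to 137 (Mir495) CPM and muscle medians from 2.94 (Mir667) to 19.8 (Mir377) CPM. In heart the 17 ran from 0 (Mir665) to 4.98 (Mir134) CPM and in bone marrow from 0 (9 of them) to 0.220 (Mir134) CPM. All 17 were thus highest in brain by median, as were the abundant ones.

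Every member was higher in brain than in the mean of the other 10 tissues: 43 of 43 were called, against 36.7% of the 1268 rows tested. A row was called at a Benjamini-Hochberg adjusted p under 0.05 in edgeR's quasi-likelihood test and a log2 fold change of at least 1 either way. The median log2 difference was 6.96 over the members and 0.14 over all rows. The median was 6.96 in the proximal and 7.09 in the distal segment. Mir770 (11.00 ± 0.52), Mir433 (9.58 ± 0.36) and Mir487b (9.43 ± 0.40, edgeR adjusted p = 3.78e-46) had the largest differences (log2 ± approximate SE), and Mir494 (2.46 ± 0.44, adjusted p = 3.15e-07) and Mir679 (4.14 ± 0.36) the smallest. The filter on low counts keeps a row that is high in 1 tissue alone. For a member found almost only in brain, such as Mir770, the call here and against muscle was therefore partly fixed by its entry. A fitted difference against tissues with no count at all is not a bound. Mir770, Mir493, Mir370, Mir323, Mir758, Mir487b, Mir412, Mir679 and Mir539 were at 0 in every library of at least 1 tissue, and without these 9 the median over the other 34 was 6.90. Every brain library stood above every library of all other tissues for 18 members, 5 proximal and 13 distal, against 4.42% of the rows tested. Without the library Brain 11 it was 23 members. Leaving out a library can only raise such a count, and the share over all rows was not computed for it.

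Against muscle alone, 37 members were higher in brain, 1 was lower and 5 were not called. Of all rows, 34.7% were called higher and 23.7% lower in this comparison. The median difference was 3.43 on the log2 scale over the members and 0.15 over all rows. In the proximal segment 11 of 13 were higher (median 2.60) and in the distal segment 26 of 30 (median 3.45). All 14 brain libraries lay above all 14 muscle libraries for 18 members, against 7.33% of rows. Without Brain 11 it was 25 members, for which the share over all rows was not computed. Over the 16 alternative analyses between 31 and 41 members were higher. The share of all rows ran from 572 of 3216 with no low-count filter to 675 of 1268 with unscaled totals.

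The 3 members with the largest difference were barely detected in muscle. Mir770, the hairpin inside Meg3, was at 2.89, 10.8 and 198 CPM in brain and 0, 0 and 0.814 CPM in muscle, where 9 of 14 libraries had no count. The log2 difference was 8.36 ± 0.67 (edgeR adjusted p = 5.19e-19). Elsewhere its medians were 0, and it had no count at all in intestine, labelled testis, pancreas, liver, kidney or bone marrow. Mir758 was at 9.88, 45.4 and 56.4 CPM in brain and 0, 0.345 and 1.69 in muscle (5.91 ± 0.43, adjusted p = 4.14e-25), with medians of 0.408 in intestine and 0 in heart, the libraries labelled testis, pancreas, lung, liver, spleen, kidney and bone marrow. Mir323, its neighbour, was at 8.06, 32.6 and 94.2 and 0, 0.646 and 0.941 CPM (5.80 ± 0.38, adjusted p = 2.59e-27), with medians of 0.389 in intestine, 0.201 in heart and 0.0492 in the libraries labelled testis and 0 in pancreas, lung, liver, spleen, kidney and bone marrow. All 3 separated brain from muscle library by library.

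Mir493 was the 1 member called lower in brain. It was at 0.177, 3.16 and 19.8 CPM in brain and 1.60, 6.23 and 19.1 in muscle, and the ranges overlapped. The log2 difference was -1.15 ± 0.40 (adjusted p = 0.00878). With unscaled library totals the difference was 0.41 (not called), in a setting that moved the median of all rows from 0.15 to 1.36, so relative to that median it was -0.95 against -1.29. In pool N541 alone it was 0.13. The medians of Mir493 were 0.0555 in intestine and 0.0472 in the libraries labelled testis and 0 in heart, pancreas, lung, liver, spleen, kidney and bone marrow.

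The 5 members that were not called were Mir539, Mir494, Mir540, Mir679 and Mir376c. Mir539 was at 0, 2.81 and 10.6 CPM in brain and 1.88, 3.98 and 8.63 in muscle (-0.28 ± 0.30, adjusted p = 0.421), with medians of 0.0592 in intestine and 0.0492 in the libraries labelled testis and 0 in heart, pancreas, lung, liver, spleen, kidney and bone marrow. Mir494 was at 0, 1.05 and 5.28 and 0, 0.968 and 2.68 CPM (0.21 ± 0.39, adjusted p = 0.654), with medians of 0.223 in heart, 0.189 in the libraries labelled testis and 0.102 in lung and 0 in intestine, pancreas, liver, spleen, kidney and bone marrow. Both groups overlapped almost fully, and these levels rest on 100 counts over all brain libraries for Mir494 and 335 for Mir539.

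Mir540 was at 10.3, 17.9 and 88.6 CPM in brain and 4.29, 16.6 and 35.4 in muscle (0.69 ± 0.32, adjusted p = 0.0510), and its medians elsewhere were 1.30 in the libraries labelled testis, 0.875 in heart, 0.464 in intestine, 0.407 in lung and 0.180 in spleen and 0 in pancreas, liver, kidney and bone marrow. Mir679 had 0, 4.83 and 19.4 and 1.08, 2.54 and 16.3 CPM (0.73 ± 0.37, adjusted p = 0.0745), with medians of 0.335 in heart, 0.306 in intestine, 0.295 in the libraries labelled testis, 0.136 in lung and 0.0293 in spleen and 0 in pancreas, liver, kidney and bone marrow. Mir376c passed the p threshold but not the size (0.95 ± 0.31, adjusted p = 0.00483), with 0, 15.2 and 32.02 CPM in brain and 2.72, 8.68 and 17.5 in muscle and medians of 1.37 in the libraries labelled testis, 1.06 in heart, 0.815 in lung, 0.724 in intestine, 0.322 in spleen, 0.266 in kidney and 0.0527 in bone marrow and 0 in pancreas and liver.

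By annotated place, the lowest median lay between Meg3 and Rtl1. The 5 members there had a median brain minus muscle difference of 1.07 (log2, from -1.15 to 2.60), and 3 of the 5 were called higher. The 5 members opposite Rtl1 had a median of 2.97 (2.10 to 4.85) and the 2 in Rian introns 3.85 and 4.99. In the distal segment the 19 members upstream of Mirg ranged from -0.28 to 5.91 with a median of 3.47, and the 11 within Mirg from 1.44 to 4.82 with a median of 3.43. Mir770, at the Meg3 end, had the largest difference of all (8.36), and Mir673, the next member along the chromosome, 1.55. Members of a place share transcripts, so they are not independent, and no test was made between places.

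**Figure D3:**
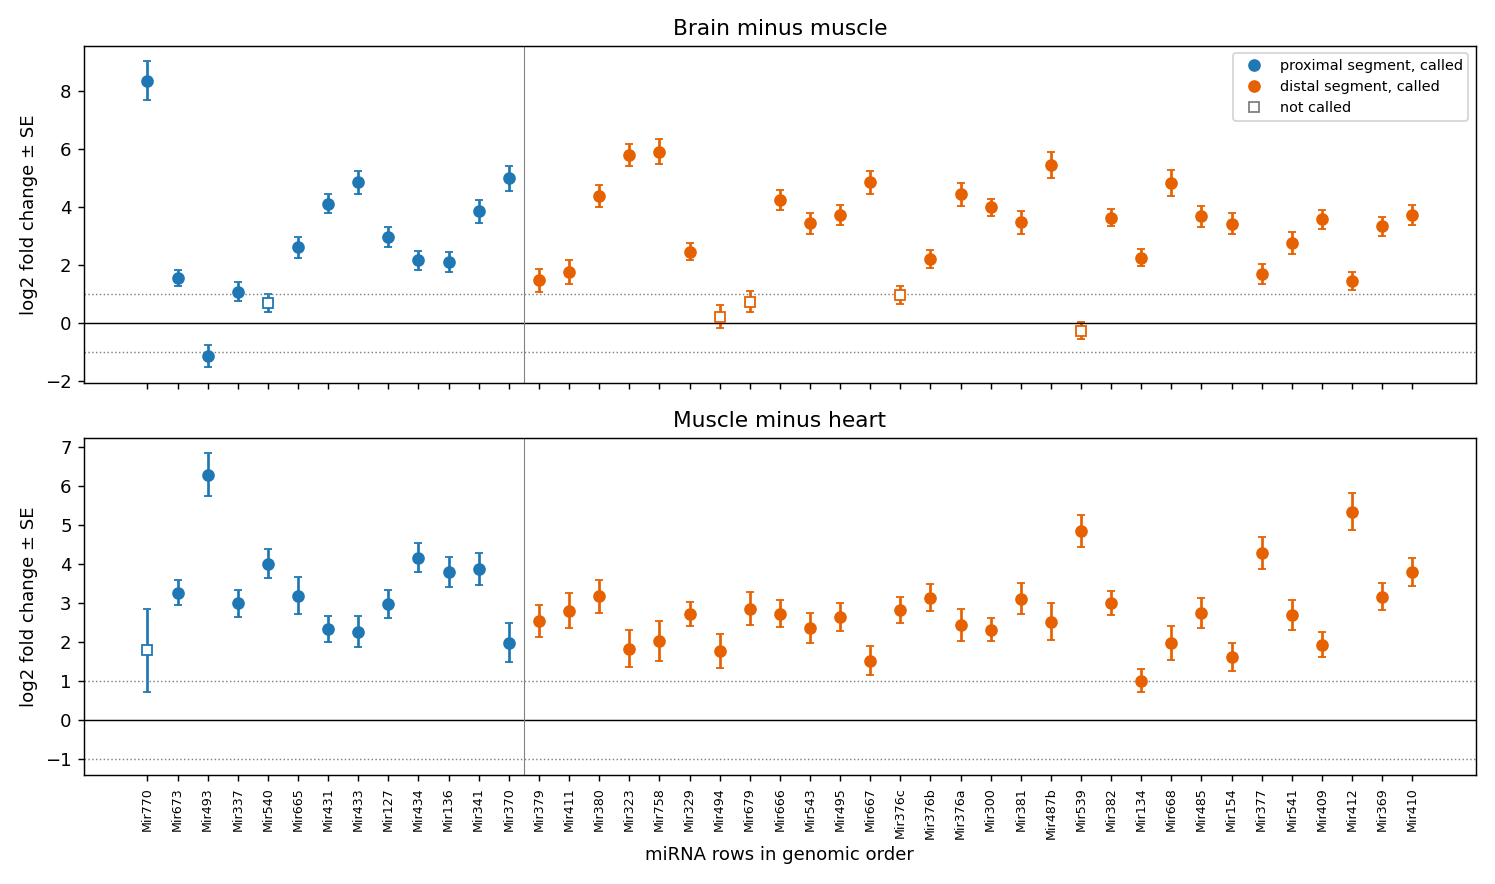
Log2 fold change with its approximate standard error for each of the 43 miRNA rows in genomic order, brain minus muscle above and muscle minus heart below, with the proximal segment in blue, the distal segment in orange, open squares for rows not called and dotted lines at the size threshold of 1. The members from Mir673 to Mir540 lie low in the upper panel, and Mir493, Mir539 and Mir412 are the 3 highest in the lower one.

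Muscle had more of every member than the mean of the 9 tissues other than brain, with 43 of 43 called higher, against 21.5% of all rows. The median difference was 4.15 (log2) over the members and -0.062 over all rows, and 4.18 over the 34 members with a count in every tissue. The median was 5.21 in the proximal and 4.04 in the distal segment, the reverse of the order in brain minus muscle. Mir493 (8.32 ± 0.52), Mir412 (6.57 ± 0.42) and Mir539 (6.04 ± 0.38, adjusted p = 3.63e-27) led, and Mir494 (2.503 ± 0.45) and Mir134 (2.42 ± 0.28, adjusted p = 8.85e-14) came last. All muscle libraries lay above all libraries of those 9 tissues for 12 members, 5 proximal and 7 distal, against 1.34% of rows.

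The 2 striated muscles differed in the same direction. Of the 43 members 42 were higher in muscle than in heart and 0 lower, against 20.7% of all rows called higher. The median difference was 2.75 over the members, 3.20 in the proximal segment, 2.72 in the distal segment and 0.35 over all rows. Mir493 was at 1.60, 6.23 and 19.1 CPM in muscle and 0, 0 and 0.438 in heart (6.30 ± 0.55, adjusted p = 6.41e-17). Mir412 was at 0.858, 4.45 and 8.17 CPM in muscle and 0, 0 and 0.420 in heart (5.36 ± 0.48, adjusted p = 1.21e-17). Its levels in brain were 0, 7.69 and 33.0 CPM, and its medians elsewhere were 0.0492 in the libraries labelled testis and 0.0471 in lung and 0 in heart, intestine, pancreas, liver, spleen, kidney and bone marrow. Mir539 was at 1.88, 3.98 and 8.63 and 0, 0 and 0.558 CPM (4.86 ± 0.40, adjusted p = 6.11e-19). In all 3 every muscle library lay above every heart library. Their brain minus muscle values, which share the muscle libraries, were -1.15 for Mir493, -0.28 for Mir539 and 1.44 ± 0.33 for Mir412.

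Mir134, the regulator of dendritic spines, had the smallest muscle to heart difference (1.02 ± 0.30, adjusted p = 0.00408). It was at 5.49, 10.6 and 23.6 CPM in muscle and 2.10, 4.98 and 9.01 in heart, and at 0, 52.6 and 85.2 in brain. Its call was lost in 14 of 16 alternative analyses (log2 0.45 to 1.06, adjusted p from 0.00244 to 0.385). Mir667 was next (1.53 ± 0.37, adjusted p = 3.80e-04). Mir770 was not called, with 8 counts over all muscle libraries and 1 over all heart libraries (a ratio of 4.60 in pooled unscaled CPM, exact 95% interval 0.617 to 204, which covers counting error only). Mir431, known to promote myoblast differentiation, was at 1.93, 4.46 and 7.91 CPM in muscle and 0, 0.753 and 1.80 in heart (2.35 ± 0.34), and at 19.8, 73.8 and 116 in brain.

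**Figure D4:**
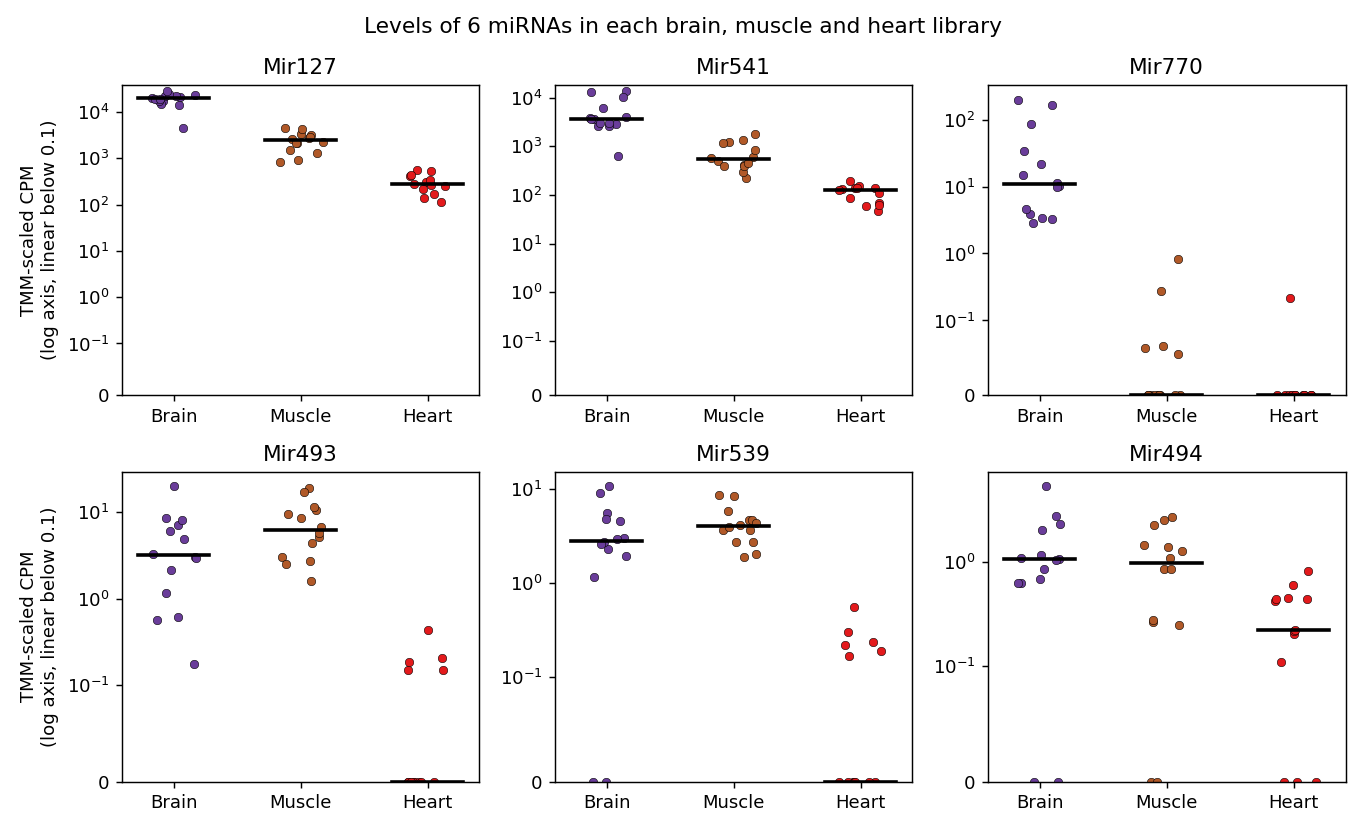
Level of 6 miRNAs in each brain (n = 14), muscle (n = 14) and heart (n = 13) library, in TMM-scaled CPM on a log axis that is linear below 0.1, with a bar at the median. Mir127 and Mir541 step down from brain to muscle to heart, Mir770 is near 0 outside brain, and Mir493 and Mir539 have higher medians in muscle than in brain (6.23 and 3.16 CPM for Mir493, 3.98 and 2.81 for Mir539), with overlapping points.

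The proximal segment held more of the cluster than the distal one in most tissues, and less in every library once Mir127 was left out. The proximal segment held 62.0 ± 7.40% of the counts on the cluster in brain (SD, n = 14), 63.7 ± 5.23% in muscle, 57.7 ± 4.05% in heart, 60.3 ± 7.24% in spleen and 56.9 ± 12.7% in kidney. Elsewhere the mean lay between 48.9% (pancreas) and 53.1% (intestine). In brain the mean was 65.0% in pool N469 and 54.4% in pool N541. Brain and muscle overlapped fully (49.7 to 74.9% and 56.8 to 74.3%). With Mir127 left out, the mean share was highest in muscle, at 33.5 ± 6.89% (20.5 to 41.9%). Brain had 23.9 ± 5.40% (14.2 to 33.4%) and heart 19.8 ± 3.15% (16.6 to 25.1%), so the ranges of muscle and of both still overlapped. Liver had the widest spread, 28.6 to 87.4%, with the library Liver 1 at 87.4% on 475 counts, where Mir127 stood at 427 CPM.

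**Figure D5:**
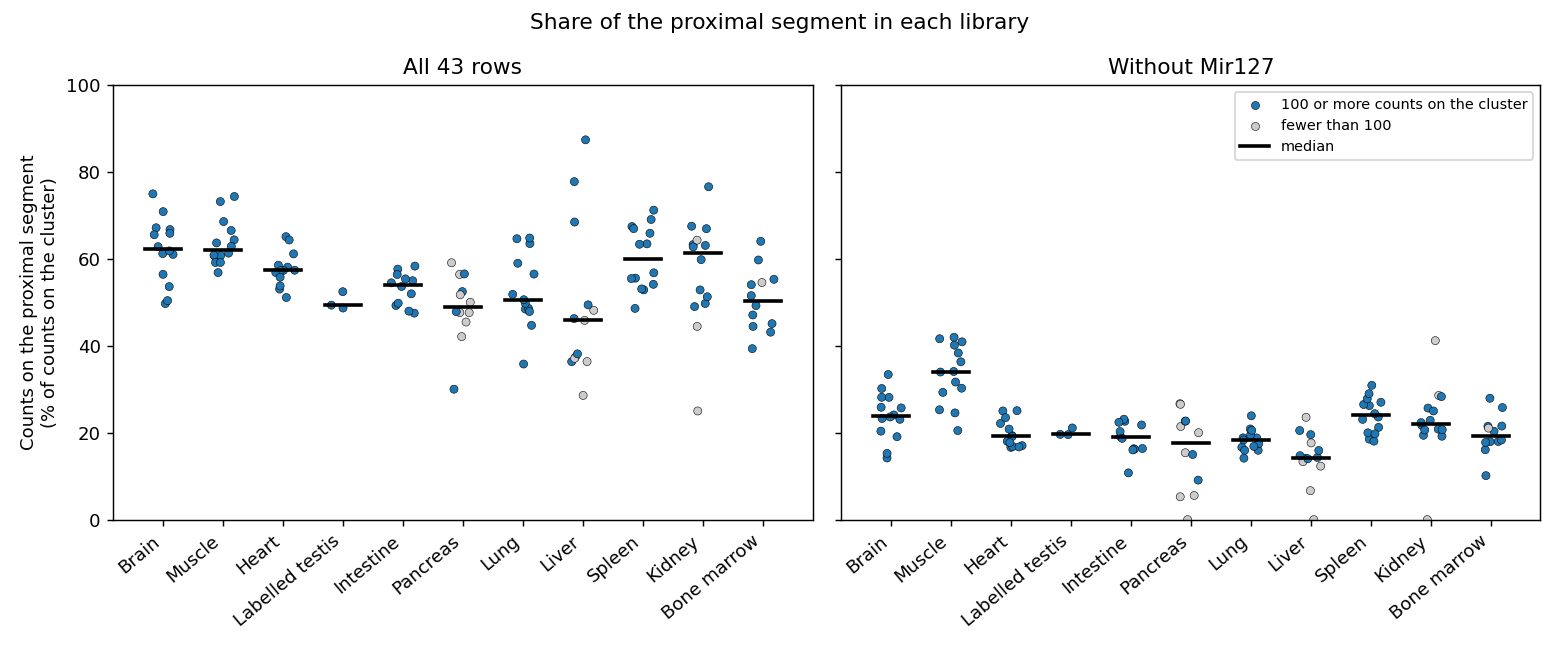
Percent of the counts on the cluster that fell on the proximal segment in each library, with all 43 rows on the left and without Mir127 on the right, by tissue, with a bar at the median and grey points for libraries with fewer than 100 counts on the cluster. Without Mir127 the share drops in every tissue, and muscle, at a median of 34.0%, is the highest.

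Spleen and bone marrow are the blood tissues of the series. Muscle exceeded the mean of both for 43 of 43 members (median 5.72, against -0.25 over all rows), where 22.2% of all rows were called higher. Mir493 (9.07 ± 0.62), Mir337 (7.90 ± 0.37) and Mir539 (7.56 ± 0.47) led, and Mir758 (3.80 ± 0.52) and Mir770 (2.88 ± 0.83) were smallest. Mir493, Mir539 and Mir770 had 1 count each over all spleen and bone marrow libraries. The pooled ratio of muscle to blood was 806 for Mir493 (exact 95% interval 144 to 31911) and 548 for Mir539 (97.8 to 21720). For Mir770, with 8 counts in muscle, it was 12.9 (1.73 to 572).

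Pancreas, which holds the endocrine islets among mostly acinar cells, was higher than blood for 30 of 43 members and lower for 0, against 14.3% of all rows called higher. The proximal segment had 8 of 13 and the distal segment 22 of 30. Mir679 (6.01 ± 0.83), Mir154 (5.45 ± 0.54, adjusted p = 7.91e-17) and Mir382 (5.36 ± 0.40, adjusted p = 1.20e-24) had the largest differences. Mir382 was at 0, 8.12 and 39.2 CPM in pancreas, 0.234, 0.599 and 1.09 in spleen and 0, 0.0998 and 0.375 in bone marrow, and Mir154 at 0, 0 and 27.6 in pancreas and 0.133, 0.337 and 1.05 in spleen. No count of Mir154 was found in 7 of 12 pancreas libraries and none of Mir679 in 8, so the ranges overlapped. Mir379 reached 9.28, 41.2 and 196 CPM in pancreas against 0.973, 2.29 and 3.79 in spleen (4.57 ± 0.47, adjusted p = 6.54e-16). Mir770, Mir493, Mir370, Mir323, Mir487b and Mir412 had no count in any pancreas library, which allows up to 1.04 unscaled CPM over the group. In pool N541 alone, whose 3 pancreas libraries held 10 to 39 counts on the cluster, 4 members were called higher and 14 of 42 tested were positive. Of all rows 76 of 948 were called higher there, so 4 of 42 is near the share over all rows. The median of the members turned negative there, at -2.50 (log2), beside -2.65 over all rows. The summed level did not turn: those libraries were at 349 to 824 CPM, above every spleen (up to 157 CPM) and bone marrow (up to 130 CPM) library of the pool. DESeq2's Wald test called all 43, those with no count in pancreas included, and 441 of 1268 rows. The 4 islet and endocrine markers, all with a median above 0 in pancreas, summed to 664 to 91835 CPM in pancreas and 28.9 to 422 CPM in the blood tissues, and their part in the difference was not tested.

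In the libraries labelled testis 38 of 43 members were higher than in blood and 0 lower, against 15.3% of all rows. The median was 3.07 over the members and -0.074 over all rows. Mir667 was at 1.32, 1.33 and 1.07 CPM (4.41 ± 0.54, adjusted p = 9.18e-12), Mir379 at 27.2, 27.2 and 24.4 CPM (3.90 ± 0.52, adjusted p = 1.91e-10), and Mir485, which targets a synaptic vesicle protein, at 1.89, 1.72 and 1.15 CPM (3.85 ± 0.52). Mir770, Mir493, Mir323, Mir758 and Mir412 were not called. Mir770 had no count in these libraries, Mir493 had 2, and Mir758 (0.69 ± 0.97, adjusted p = 0.705), Mir323 (1.36 ± 0.65) and Mir412 (0.92 ± 0.61) missed the threshold. Since germ cell markers were at or near 0 here, these values are not given as levels in testis.

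The blood tissues themselves differed less. Spleen was higher than bone marrow for 17 members and lower for 0, against 16.0% of all rows called higher, with a median of 1.02 over the members (1.01 with members at 0 in bone marrow set to their lower bound) and -0.062 over all rows. Mir337 was at 0.1003, 0.442 and 1.11 CPM in spleen and 0, 0.0313 and 0.294 in bone marrow (2.70 ± 0.55, adjusted p = 4.21e-05). Mir382 differed by 2.29 ± 0.44 (adjusted p = 1.09e-05). Mir679 had 18 counts in spleen and 0 in bone marrow, at least 3.79-fold higher against a floor of 3 counts over the group. Mir758 (0.02 ± 0.14) and Mir494 (0.055 ± 0.58) had the smallest differences. Both had medians of 0 in both tissues, so their SE does not measure precision. The count of members called was 28 with the animal as a replicate block, 27 without a pool term, 6 in pool N541 alone and 9 over miRNA rows only. All rows called higher in the same settings were 284 of 1268, 290 of 1268, 229 of 948 and 94 of 568. In pool N541 alone 42 members were tested, and their share called was below that of all rows. Over miRNA rows only the share of members was near that of all rows. The 4 stromal markers, all with medians above 0 in both, summed to 403 to 1640 CPM in spleen and 266 to 701 CPM in bone marrow, and their part in the difference was not tested.

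Between animals 11 to 14 and 1 to 10, a split in which sex, animals and pool cannot be told apart, most members were not called. In brain 9 of 43 were higher and 1 lower in animals 11 to 14, against 5.52% and 12.4% of all rows. The higher ones were 6 of 13 proximal and 3 of 30 distal members. The 9 were Mir379 (2.31 ± 0.53, adjusted p = 6.42e-04), Mir433 (2.02 ± 0.50), Mir770 (1.95 ± 0.65), Mir493, Mir540, Mir337, Mir666, Mir412 and Mir673, and the 1 was Mir329 (-1.36 ± 0.47). Mir382 (-0.05 ± 0.37) and Mir434 (-0.033 ± 0.46) had the smallest differences. In muscle 1 was higher, Mir433 (1.58 ± 0.55), and 5 lower (Mir494, Mir411, Mir495, Mir382 and Mir329), led by Mir494 (-2.52 ± 0.69) and Mir411 (-2.24 ± 0.69), against 8.75% and 9.15% of all rows, with Mir673 (0.092 ± 0.42) and Mir370 (0.062 ± 0.62) smallest. The change between animal sets in brain minus that in muscle was called for 2 members, both higher (1.10% of all rows were called higher): Mir337 (2.38 ± 0.66, adjusted p = 0.0110) and Mir494 (3.02 ± 0.98, adjusted p = 0.0411). The call was lost in 7 of 12 alternatives for Mir337 and in 11 of 11 for Mir494. Mir770 (2.79 ± 1.56) and Mir493 (2.38 ± 0.85) had the next largest values and Mir329 (-0.10 ± 0.63) and Mir679 (0.039 ± 0.83) the smallest. The counts within tissues moved with the libraries kept: 1 to 9 members were higher in brain over the alternatives, and 5 without Brain 11. Over all rows the share called higher ran from 30 of 3216 with no low-count filter to 84 of 1268 with unscaled totals. It was 50 of 1274 without Brain 11. The lower call in brain was lost without Brain 11, which had no count of Mir329 (0 members lower, beside 147 of 1274 rows). Up to 7 were lower without 1 library labelled testis. Of all rows 385 of 1302 were lower there, so 7 of 43 is below the share over all rows.

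Among the other rows of the region, 7 further miRNA rows and 9 snoRNA rows passed the filter. The snoRNAs, box C/D guides encoded in Rian introns and nearby, were higher in brain than in the mean of the other tissues for 9 of 9 rows, in muscle against the 9 tissues other than brain for 9 of 9, and in brain against muscle for 8 of 9 (median 2.39). Of the 7 miRNA rows 6, 7 and 3 were higher in these comparisons, in which 36.7%, 21.5% and 34.7% of all rows were called higher, so that 3 of 7 is near the share over all rows. Mir544, in the distal cluster, was the most brain-biased of them over muscle (5.38 ± 0.37), while Mir1193 (-0.62 ± 0.35), Mir299a (-0.17 ± 0.32) and Mir1197 (0.66 ± 0.45) were not called, and Mir1247, near Dio3, was at -0.84 ± 0.33 (adjusted p = 0.0227).

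Outside the region, the 5 rows whose mean log2(CPM + 1) over the 11 tissues was most like that of the summed members, by Pearson's r over these 11 means that share their libraries, were the snoRNA Gm22962 (r = 0.954), the miRNA Mir7093 (0.908), the tRNA row numbered 1527 (0.898), the snoRNA Gm24598 (0.883) and the miRNA Mir7689 (0.881). All were low: Gm22962 had medians of 44.3 CPM in brain, 16.0 in muscle, 2.68 in heart and 0.0758 in bone marrow, and Mir7093 had 0.416 CPM in brain.

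Correlations between members over the libraries of a tissue are given as a description. Over 13 brain libraries with at least 100000 counts, the correlation of log2(CPM + 1) had a median of 0.591 over 55 pairs within the proximal segment, 0.460 over 351 pairs within the distal segment and 0.434 over 297 pairs between the segments. Over 14 muscle libraries the medians were 0.392 (21 pairs), 0.481 (91 pairs) and 0.541 (98 pairs). Single pairs ranged from -0.868 to 0.976 in brain and from -0.748 to 0.966 in muscle. Over all pairs of members the median was 0.452 in brain and 0.494 in muscle, beside 0.0851 and 0.0270 over pairs of rows outside the region in the same libraries, under the same minimum mean of 10 CPM. Within animals 1 to 10 alone the medians were 0.492 and 0.536 for members and 0.0650 in both tissues for other rows. All pairs share library and scaling.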

How the data were processed

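Small RNA of 134 libraries from 11 tissues of 14 mice was analysed. The deposited table holds whole-number counts per gene and library. Per the submitters' processing notes, the authors aligned reads with STAR 2.5.1 to mm10 (GRCm38) and counted them with featureCounts; its strand and multi-mapping settings were not given in these sources. All 134 columns were used, of which 3 labelled testis could be matched to their group but not to a single sample, and 5 of the 139 listed samples were not analysed here.

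The table was fitted as a whole in edgeR 4.0.16 (R 4.3.3, limma 3.58.1) with filterByExpr at a minimum count of 10, which left 1268 of 6114 rows, TMM scaling (factors 0.199 to 5.88), tissue and pool as terms, and the quasi-likelihood test with Benjamini-Hochberg adjustment over all 1268 rows. A row was called at an adjusted p under 0.05 and a log2 fold change of 1 or more in either direction. Differences between animal sets came from contrasts of tissue by animal set means. The SE beside a log2 difference is approximate: it is the absolute difference divided by the square root of the test's F statistic. For members with few counts it does not measure precision. Levels are TMM-scaled CPM with no prior count. Library totals had a median of 6327550 counts. At 3 counts, the floor used for a count of 0, the deepest library allows 0.0880 unscaled CPM and the shallowest 293. Floors and intervals reflect counting error alone, because PCR copies carry no mark. On data simulated for brain minus muscle over 1229 rows, 47.8% of rows changed 2-fold and 100% of those changed 4-fold or 8-fold were called the right way, with 0.19% of unchanged rows called. The simulation gave muscle the brain means apart from the changed rows, the same spread in every row and no pool or animal effect. It scored only rows above a minimum level in brain. Its rates therefore do not carry over to these data, least of all to members with few counts.

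The labels give animal numbers shared across tissues, so libraries of 1 number come from 1 animal. The deviations of libraries from their group means had a median correlation of 0.152 within an animal and 0.0831 between animals of a set, and over the 14 brain and muscle pairs they ran from -0.0316 to 0.610 (median 0.273). The main fit had no animal term, so libraries of 1 animal were treated as independent. P-values measure the spread between libraries from animals of 1 strain, shared over all tissues.

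The members, marker lists and named members were chosen with earlier results of these data known. Named members are the 6 proximal and 10 distal ones highest by mean level, the exceptions to the brain and muscle pattern, and in each comparison the 3 largest and 2 smallest differences. Mir431 was added for its known role after its values were seen. Alternatives were DESeq2 1.42.0 (size factors and Wald test), unscaled totals, miRNA rows only, other filters, an animal block, no pool term, pool N541 or animals 1 to 10 alone, and leaving out shallow or single libraries.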

Additional observations from a re-analysis of the deposited data

Results flagged for a closer look

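For Mir337 and Mir494 the difference between animals 11 to 14 and animals 1 to 10 was not the same in brain and in muscle, by a test of that difference itself. For Mir337 the brain value exceeded the muscle value by 2.38 on the log2 scale. It passed the thresholds in 5 of 12 alternative analyses (1.16 to 2.96). For Mir494, which rests on 100 counts in brain and 82 in muscle, the brain value exceeded the muscle value by 3.02, and it passed in 0 of 11 alternatives (1.90 to 3.02). Sex, animals and library pool cannot be told apart in this split.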

How the results depend on the processing

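Against the other tissues, over 16 alternatives, 42 to 43 members were higher in brain and 39 to 43 in muscle (other than brain). Brain exceeded muscle for 31 to 41, muscle exceeded heart for 35 to 42 and muscle exceeded blood for 40 to 43. The share of all rows called higher was lowest with no low-count filter. In the order above it was 588, 307, 572, 196 and 329 of 3216 rows. It was highest for brain with unscaled totals, with 592 (other tissues) and 675 (muscle) of 1268. For muscle it was highest over miRNA rows only, with 167 (other tissues), 129 (heart) and 171 (blood) of 568. Members lower in brain than in muscle numbered 0 with unscaled library totals and in pool N541 alone, and 2 over miRNA rows only. All rows called lower there were 76 of 1268, 385 of 948 and 160 of 568. Mir493 was then at 0.41 with unscaled totals and 0.13 in pool N541. Pancreas exceeded blood for 4 members in pool N541 alone, beside 76 of 948 rows, and Mir154 was at -4.47 there. With DESeq2's Wald test Mir770 (6.54) and Mir412 (6.05) turned positive in that comparison, although pancreas had no count of either. Spleen exceeded bone marrow for 28 members with the replicate block, 27 with no pool term, 6 in pool N541 alone and 9 over miRNA rows only. All rows called higher there were 284 of 1268, 290 of 1268, 229 of 948 and 94 of 568. The replicate block moved no other count by over 1.5 times. The set contrasts were not run with the block, with no pool term or within 1 animal set, since the contrast is that split itself, and animals 1 to 10 hold no library labelled testis.

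Members higher in brain in animals 11 to 14 numbered 1 with no low-count filter, 5 with DESeq2's Wald test, 5 without Brain replicate 11 (an alternative chosen after seeing the data) and 2 to 5 without 1 library labelled testis. All rows called higher in these settings were 30 of 3216, 39 of 1268, 50 of 1274 and 26 to 42 of 1302. Members lower in brain in animals 11 to 14 numbered 2 with DESeq2's size factors, a minimum count of 50, the Wald test or without Pancreas replicate 11. They numbered 0 with unscaled totals, without libraries under 100000 counts or without Brain replicate 11. They were 4 with no filter, 5 over miRNA rows only and 4 to 7 without 1 library labelled testis. In the same order, all rows called lower were 221 of 1268, 205 of 945, 186 of 1268 and 211 of 1274. They were then 139 of 1268, 135 of 1287 and 147 of 1274, and lastly 305 of 3216, 82 of 568 and 300 to 385 of 1302. In none of these settings was the share of members above that of all rows. In muscle the higher count was 0 with unscaled totals or without shallow libraries, beside 89 of 1268 and 121 of 1287 rows. The lower count was 8 with unscaled totals, 1 with no filter and 3 at a minimum count of 50, beside 170 of 1268, 41 of 3216 and 73 of 945 rows. It was 2 without shallow libraries, without Pancreas replicate 11, without Brain replicate 11, over miRNA rows only or without any 1 library labelled testis. All rows called lower there were 68 of 1287, 67 of 1274, 67 of 1274, 20 of 568 and 41 to 68 of 1302. The cause of these shifts was not tested.

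With unscaled totals the summed level was 64544 CPM in brain, 339.6 in the libraries labelled testis, 727 in pancreas, 180.4 in spleen and 46.0 in kidney. With totals over miRNA rows it was 76877 CPM in brain, 681 in labelled testis, 877 in pancreas, 405 in lung, 269.7 in spleen and 113 in bone marrow. Without Mir127 it was 18839 CPM in brain, 2835 in muscle, 338 in heart, 346 in labelled testis, 177 in lung, 61.8 in spleen and 47.2 in kidney, and in pool N541 alone it was 50.6 in kidney. The proximal share without Mir127 was 23.9% in brain, 33.5% in muscle, 19.8% in heart, 18.6% in intestine, 20.1% in labelled testis, 15.9% in pancreas, 18.3% in lung, 14.3% in liver, 24.0% in spleen, 22.6% in kidney and 19.7% in bone marrow, and in brain it was 54.4% in pool N541 alone with all members.

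Of the alternatives for single named members, 819 stayed on the same side, 15 gained a call, 32 lost it and 5 changed sign. Depth limited pancreas most, where 3 counts over all 12 libraries equal 1.04 unscaled CPM.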
